A study of Mus musculus with 8 samples.

Results

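The 9 genes described here mark vessel beds outside the brain, and the values show how far cultured brain endothelium expressed them. They were named one by one, as Plvap, Emcn, Stab1, Lyve1, Prox1, Pdpn, Gpihbp1, Cd36 and Ehd3, and each was found by its mouse symbol among the 54532 Ensembl genes of the deposited tables. All are protein coding. The libraries came from primary mouse brain microvascular endothelial cells, which were kept in a medium with 20% serum, 10 ng/mL of FGF and 100 ng/mL of heparin. Of the 8 libraries, 4 were labelled wild type and 4 Cavb3 KO, which names mice deficient in Cavβ3, an auxiliary subunit of voltage-gated calcium channels. Of the knockout allele, the strain, age and sex of the mice and the passage of the cultures, the sources used here say nothing. The design text calls the replicates independent and biological.

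Capillaries of endocrine glands, kidney and gut are fenestrated: their walls hold pores, most of them bridged by a diaphragm made of the Plvap protein. Sinusoids of liver and spleen are leakier still and carry scavenger receptors such as stabilin-1, while lymphatic vessels are specified by the transcription factor Prox1 and display podoplanin and Lyve1. Mature brain endothelium normally lacks fenestrae, holds little Plvap and seals its junctions tightly, and endothelium taken into culture is known to drift away from the bed it came from.

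The values are FPKM, that is reads or fragments scaled by exon length and by library depth, so levels can be compared between genes on a scale per length. The steps between low values implied a depth of 24946878 to 28475518 reads or fragments per wild type library and of 23491645 to 33813070 per library labelled Cavb3 KO. Tests covered the 11864 genes that reached 1 FPKM in 4 or more of the libraries. The targeted gene did not separate the labels. In wild type, Cacnb3 had FPKM values of 3.38, 3.56, 1.12 and 0.980 in order of replicate number, and under the Cavb3 KO label it had 1.70, 2.09, 2.47 and 1.77. Under that label it was thus lower in replicates 1 and 2 and higher in replicates 3 and 4, each without overlap. The log2 differences were -0.63 and 0.60 (limma adjusted p = 0.186 and 0.319). Each direction between genotypes therefore rests on the label. Replicates 1 and 2 of both genotypes (the first set) stood apart from replicates 3 and 4 (the second set), and these are called replicate sets, since the labels name no batch. The Y-linked Ddx3y lay between 6.98 and 9.48 FPKM in every library of the first set and was listed at 0 throughout the second. All 18 genes of a pan-endothelial list, among them Pecam1 and Cdh5, passed the low-value filter.

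Of the 9 genes, 5 passed the filter, namely Emcn, Stab1, Plvap, Pdpn and Ehd3, and 4 did not. Emcn encodes endomucin, a sialomucin that keeps leukocytes off the surface of venous and capillary endothelium. It was by far the highest, at 298 ± 83.3 FPKM over the 8 libraries (SD, n = 8), a mean above that of 99.2% of the tested genes. Stab1, the scavenger receptor of sinusoids and of some macrophages, followed at 48.3 ± 8.42 FPKM. Plvap, the diaphragm protein, was at 31.1 ± 7.30 FPKM, Pdpn, a mucin-type glycoprotein of lymphatic endothelium and of several epithelia and stromal cells, at 13.1 ± 10.3 FPKM, and Ehd3, an endocytic ATPase abundant in glomerular endothelium, at 8.94 ± 0.705 FPKM. Their means stood at the 91.7, 85.8, 66.9 and 56.0 percentiles of the tested genes. Emcn is also a pan-endothelial gene, and Stab1 was the most abundant marker of sinusoids among the members.

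The other members were low. Lyve1, the hyaluronan receptor of lymphatic vessels and sinusoids, was at 0.961 ± 0.458 FPKM (SD, n = 8) and reached 1 FPKM in 2 libraries, with 40 to 144 recovered reads. Prox1 was at 0.211 ± 0.0776 FPKM from 26 to 78 reads, and Gpihbp1, which carries lipoprotein lipase across capillary walls, at 0.150 ± 0.0428 FPKM from 6 to 14 reads. Cd36, the fatty acid transporter of muscle, heart and fat capillaries, had 1 read in wild type replicates 1 and 3 and 0 in the other 6 libraries. A count of 0 allows at most 3 reads, or 0.0356 FPKM in the shallowest library, and this limit covers counting error only. Of the defining lymphatic markers podoplanin was thus present, while Prox1 and Lyve1 were near or under the filter.

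In order of mean level, Emcn lay 6.17-fold above Stab1 with no overlap of their ranges over the 8 libraries. Stab1 and Plvap overlapped in range, although Stab1 was the higher in 8 of 8 libraries. Plvap was above Pdpn in 7 of 8 libraries and Pdpn above Ehd3 in 5 of 8, so these neighbours did not separate beyond their spread. Ehd3 lay 9.31-fold above Lyve1 and Lyve1 4.55-fold above Prox1, each without overlap. Prox1 was above Gpihbp1 in 6 of 8 libraries, with overlapping ranges. These ranks rest on the exon lengths used to make the FPKM values. In the GENCODE M21 annotation of GRCm38, Emcn (ENSMUSG00000054690) spans chr3:137341067-137432185 on the plus strand, Stab1 (ENSMUSG00000042286) chr14:31139013-31168641 on the minus strand and Plvap (ENSMUSG00000034845) chr8:71497765-71511752 on the minus strand. Pdpn (ENSMUSG00000028583) spans chr4:143267431-143299564 on the minus strand and Ehd3 (ENSMUSG00000024065) chr17:73804134-73832094 on the plus strand, and the values sum over the exons of each gene.

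**Figure D1:**
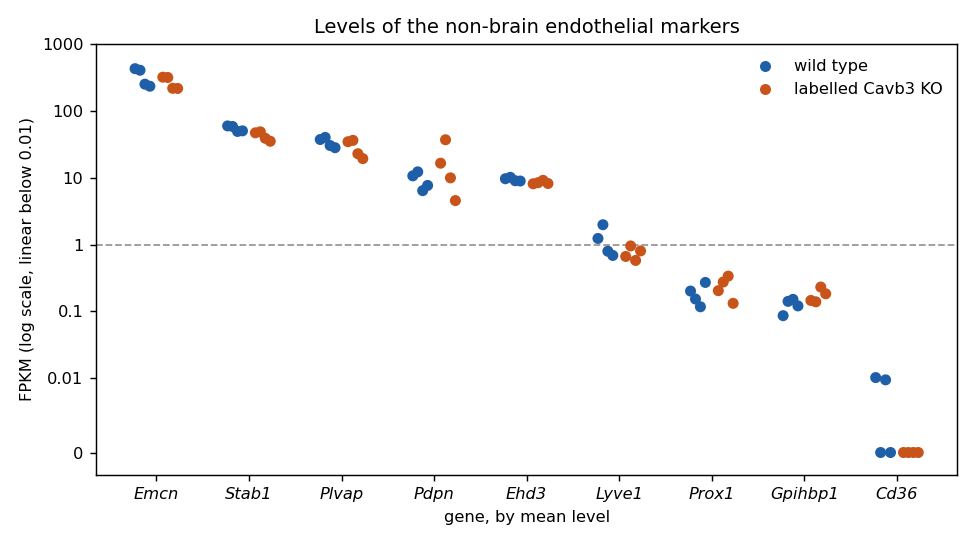
Each point is a library, with the FPKM of each gene on a log axis that is linear below 0.01, wild type in blue and the libraries labelled Cavb3 KO in orange. The dashed line marks 1 FPKM, the level of the filter: Emcn, Stab1, Plvap, Pdpn and Ehd3 lie above it in every library, and Cd36 is at or near 0.

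Promoters are printed for Emcn, Stab1 and Pdpn, 3 of the 4 members that were lower together in the second replicate set. The fourth was Plvap. Each runs from 250 bases before to 50 bases after the gene's start (RefSeq, build GRCm38.p6), read 5′ to 3′ on the gene's strand. Capitals mark the letters GGAAG or, on the other strand, CTTCC, the core letters that ETS factors of endothelial cells can bind.
Emcn, chr3:137340828-137341127, plus strand: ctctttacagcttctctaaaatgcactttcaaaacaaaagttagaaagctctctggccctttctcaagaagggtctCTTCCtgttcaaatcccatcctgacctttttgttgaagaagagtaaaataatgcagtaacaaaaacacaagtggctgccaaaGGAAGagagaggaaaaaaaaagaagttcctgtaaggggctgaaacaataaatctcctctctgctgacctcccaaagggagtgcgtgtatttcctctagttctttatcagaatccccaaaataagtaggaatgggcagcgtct
Stab1, chr14:31168592-31168891, minus strand: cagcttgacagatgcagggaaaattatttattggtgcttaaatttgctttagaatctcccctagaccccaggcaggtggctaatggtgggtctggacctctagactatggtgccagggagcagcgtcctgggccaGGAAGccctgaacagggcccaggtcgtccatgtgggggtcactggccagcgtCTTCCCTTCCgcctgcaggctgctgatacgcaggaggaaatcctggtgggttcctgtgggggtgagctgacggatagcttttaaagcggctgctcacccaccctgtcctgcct
Pdpn, chr4:143299515-143299814, minus strand: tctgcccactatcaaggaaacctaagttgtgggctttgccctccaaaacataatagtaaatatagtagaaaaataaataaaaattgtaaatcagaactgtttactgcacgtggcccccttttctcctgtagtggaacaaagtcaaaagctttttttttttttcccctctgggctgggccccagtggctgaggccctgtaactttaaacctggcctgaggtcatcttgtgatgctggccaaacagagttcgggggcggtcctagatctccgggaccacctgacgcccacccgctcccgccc
The Emcn window held 2 matches, the Stab1 window 3 and the Pdpn window 0. The letters are frequent, since 71.4% of the 32851 promoters of this length held at least 1 match on either strand. AACAAT or, on the other strand, ATTGTT, as bound by SOX factors, was found in the Emcn window and in neither of the others, against 10.7% of all promoters. TATAAA (13.6% of promoters) and AGATAA, bound by GATA factors (11.2%), were in none of the 3 windows, searched on both strands. None of these motifs contains another, and a match is a description only.

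Stab1 was the only member whose genotypes did not overlap. Its FPKM was 59.5, 58.3, 49.2 and 50.2 in the wild type libraries, in order of replicate number as in all such series here, and 46.9, 48.5, 38.8 and 35.1 under the Cavb3 KO label. Every wild type library thus lay above every library labelled Cavb3 KO, as was the case for 2.5% of tested genes in this direction and for 1.64% in the other. Mean levels of 54.3 ± 5.34 and 42.3 ± 6.43 FPKM (SD, n = 4 each) gave a ratio of 0.780. In the comparison without further terms, fitted with limma on log2(FPKM + 1) and adjusted over all 11864 genes, Stab1 differed by -0.36 ± 0.12 SE (adjusted p = 0.774), and 0 of the 5 tested members passed, against 0% of all tested genes. In that fit 647 genes had an unadjusted p under 0.05, Stab1 alone among the members, and limma-voom on recovered reads also called 0 genes.

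With the replicate set as a term, Stab1 fell by 0.36 ± 0.05 SE on the log2 scale (limma adjusted p = 0.0453). It was the 1 member called of 5, where 0.632% of all tested genes were called and 0.371% were called lower. The call did not hold with the replicate number as a block (limma adjusted p = 0.107), without the low-value filter (0.230), or when any wild type library was left out (0.0851, 0.176, 0.142 and 0.116 for replicates 1 to 4). It was also lost without replicate 1 (0.166) or 2 (0.0777) labelled Cavb3 KO, and kept without replicate 3 (0.0346) or 4 (0.0493) and on recovered reads (0.0371). Within replicates 1 and 2 the difference was -0.30 and within replicates 3 and 4 it was -0.42 (limma adjusted p = 0.200 and 0.261, where 0% and 0.0506% of genes were called, the latter made up of 0.0169% higher and 0.0337% lower). Of the Stab1 exon bases, 1.09% are shared with Nt5dc2 on the opposite strand, and whether the counting used strand was not stated.

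Plvap and Emcn had lower means in the libraries labelled Cavb3 KO, with overlapping genotypes. Plvap was at 37.2, 40.02, 30.3 and 28.1 FPKM in wild type and at 34.5, 36.2, 22.8 and 19.3 FPKM in the libraries labelled Cavb3 KO. Each library labelled Cavb3 KO lay below the wild type library of the same replicate number, by ratios of 0.927, 0.903, 0.754 and 0.686. The replicate numbers followed the replicate sets and did not single out pairs, so these ratios are a description. The share of all tested genes lower at each number was not counted. Mean levels of Plvap were 33.9 ± 5.65 and 28.2 ± 8.40 FPKM (SD, n = 4 each). The log2 difference was -0.29 (95% confidence interval -0.78 to 0.20, limma adjusted p = 0.928), and with the replicate set as a term -0.49 to -0.09 (adjusted p = 0.137).

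Emcn was at 427, 405, 251 and 233 FPKM in wild type and at 319, 315, 217 and 216 FPKM in the libraries labelled Cavb3 KO. The ratios at the same replicate number were 0.746, 0.779, 0.868 and 0.927, all below 1, which is likewise a description. On average it was at 329 ± 101 and 267 ± 57.9 FPKM (SD, n = 4 each), with a log2 difference of -0.27 (95% confidence interval -0.83 to 0.28, limma adjusted p = 0.932; -0.42 to -0.12 with the replicate set as a term, adjusted p = 0.0886). The ratios lay farther from 1 in replicates 3 and 4 for Plvap and in replicates 1 and 2 for Emcn. The difference between the replicate sets in the genotype effect was -0.33 for Plvap and 0.23 for Emcn and passed for none of the 5 tested members (limma adjusted p of 0.793 to 0.928, where 0.00843% of genes were called). Among the 5, Plvap alone had an unadjusted p under 0.05 there, beside 735 of all 11864 tested genes. Without the low-value filter the unadjusted limma p was 0.060 for Plvap and 0.0456 for Emcn. On recovered reads limma-voom also called 0 of the members.

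Pdpn had the largest SD relative to its mean among the 5 tested members. The wild type libraries held it at 10.7, 12.2, 6.40 and 7.66 FPKM. In the libraries labelled Cavb3 KO it was at 16.5, 36.9, 9.94 and 4.54 FPKM, with replicate 2 far above all others and replicate 4 below every wild type library. Averages were 9.23 ± 2.68 and 17.0 ± 14.2 FPKM (SD, n = 4 each), and the log2 difference of 0.51 had a 95% confidence interval of -0.70 to 1.71 (limma adjusted p = 0.951). Without replicate 2 labelled Cavb3 KO it was 0.03, and within replicates 3 and 4 it was -0.04.

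The 2 libraries with the highest Pdpn also held the most Aqp1 and Msln, genes of the marker lists that were singled out after their values had been seen. Aqp1, a water channel of choroid plexus, mesothelium and peripheral capillaries, was at 12.5 to 15.3 FPKM in wild type and at 51.1, 127, 29.0 and 15.3 FPKM in the libraries labelled Cavb3 KO. Msln, the mesothelial surface protein mesothelin, was at 0.150 to 0.379 FPKM in wild type and at 3.17, 8.34, 0.160 and 0.242 FPKM in the libraries labelled Cavb3 KO. The keratin gene Krt19 did not follow that order, at 68.2, 78.7, 88.7 and 55.9 FPKM in the libraries labelled Cavb3 KO. Over the 10 mesothelium-like genes the summed level was 25.5 to 38.0 FPKM in wild type and 57.2 to 89.4 FPKM in the libraries labelled Cavb3 KO, most of it Krt19, while 8 of the 10 stayed under 1 FPKM in every library. Wt1 was at most 0.0259 FPKM and Upk3b at most 0.0482 FPKM. Whether mesothelium-like cells were present, and what part they had in the Pdpn values, was not tested.

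**Figure D2:**
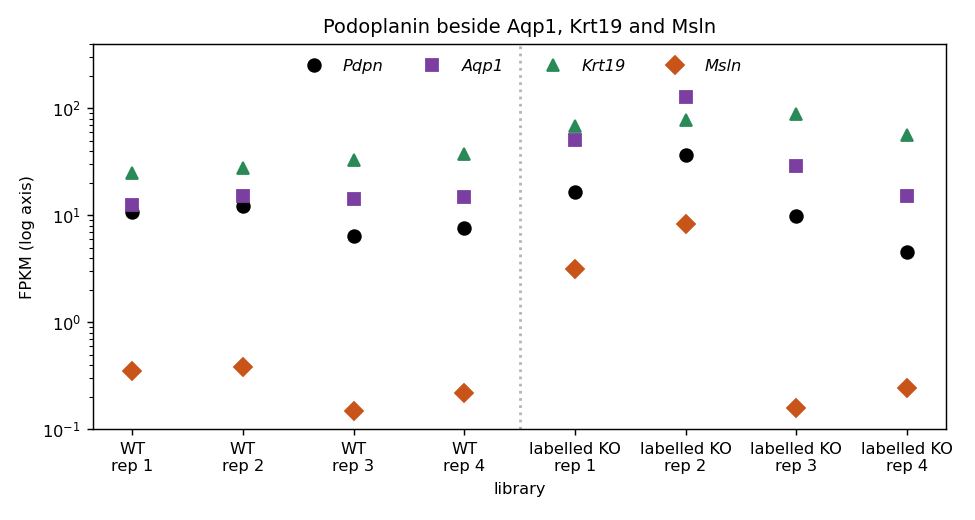
Points are the FPKM of Pdpn, Aqp1, Krt19 and Msln in each of the 8 libraries, on a log axis. Pdpn, Aqp1 and Msln are highest in replicates 2 and 1 labelled Cavb3 KO, with Pdpn at 36.9 and 16.5 FPKM, while Krt19 is high in all 4 libraries of that label.

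Ehd3 was the steadiest of the tested members. It was at 9.64, 10.1, 9.002 and 8.92 FPKM in wild type and at 8.11, 8.42, 9.13 and 8.19 FPKM in the libraries labelled Cavb3 KO, so the groups overlapped through replicate 3 alone. Averages were 9.42 ± 0.572 and 8.46 ± 0.465 FPKM (SD, n = 4 each; log2 difference -0.14, 95% confidence interval -0.31 to 0.03, limma adjusted p = 0.896).

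Of the members under the filter, Lyve1 was at 1.23, 1.98, 0.794 and 0.687 FPKM in wild type and at 0.663, 0.952, 0.578 and 0.802 FPKM in the libraries labelled Cavb3 KO, with overlap. Prox1 ranged from 0.117 to 0.271 FPKM in wild type and from 0.132 to 0.337 FPKM in the libraries labelled Cavb3 KO, and Gpihbp1 from 0.0863 to 0.151 and from 0.139 to 0.231 FPKM. In limma-voom on recovered reads, which takes in genes with at least 10 reads in at least 4 libraries, the log2 differences were -0.46 for Lyve1, 0.42 for Prox1 and 0.50 for Gpihbp1 (95% confidence intervals -1.28 to 0.36, -0.40 to 1.23 and -0.31 to 1.31, adjusted p = 0.964 for each). With the replicate set as a term the difference of Lyve1 was -0.55 (-1.14 to 0.04, adjusted p = 0.322).

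**Figure D3:**
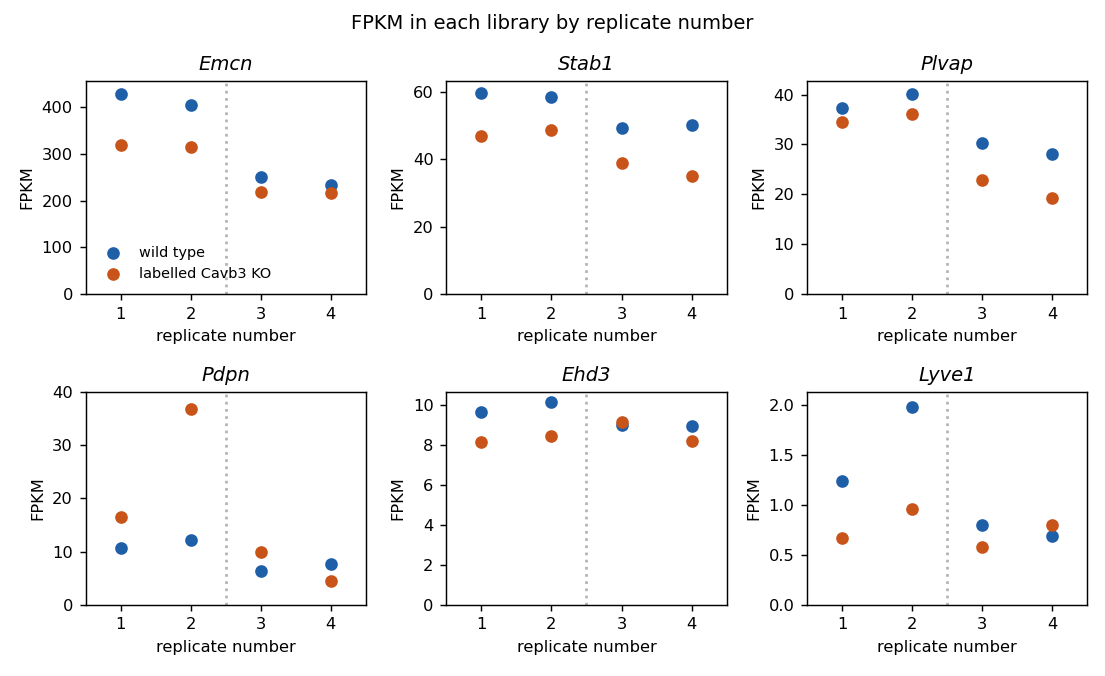
Each panel plots the FPKM of a gene against the replicate number, wild type in blue and labelled Cavb3 KO in orange, with a dotted line between the replicate sets. Plvap, Emcn and Stab1 are lower in the library labelled Cavb3 KO at each of the 4 numbers, and Plvap, Emcn and Pdpn are lower in every library of replicates 3 and 4 than in any of replicates 1 and 2. Libraries of the same number were not shown to be pairs beyond their replicate set.

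The replicate number went with larger differences than the genotype label for Emcn, Plvap and Pdpn. Between replicates 3 and 4 and replicates 1 and 2, with genotype in the limma fit, 4 of the 5 tested members fell, where 45.7% of all tested genes were called, 25.8% lower and 19.8% higher. Emcn went from 315 to 427 FPKM in replicates 1 and 2 to 216 to 251 FPKM in replicates 3 and 4, without overlap (log2 difference -0.66 ± 0.07 SE, limma adjusted p = 6.1e-04). Plvap went from 34.5 to 40.02 FPKM to 19.3 to 30.3 FPKM, also without overlap (-0.56 ± 0.09, adjusted p = 0.00233).

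Pdpn ranged from 10.7 to 36.9 FPKM in the first set and from 4.54 to 9.94 FPKM in the second, without overlap (-1.18 ± 0.34 SE, limma adjusted p = 0.0249). Its call was lost without replicate 4 labelled Cavb3 KO (adjusted p = 0.0556) and without the low-value filter (0.0742). Stab1 overlapped between the sets, at 46.9 to 59.5 and 35.1 to 50.2 FPKM (-0.30 ± 0.05, adjusted p = 0.00378). Groups without overlap in this direction were found for 22.8% of tested genes, so 3 of 5 members is a description and the members were chosen with these values known. Ehd3 differed by -0.03 (95% confidence interval -0.18 to 0.11, adjusted p = 0.681), a sign that turned to 0.00 and 0.01 with quantile normalization and median centring. Lyve1 ranged from 0.663 to 1.98 FPKM in the first set and from 0.578 to 0.802 FPKM in the second, and in limma-voom it differed by -0.70 (adjusted p = 0.0575). The Y-linked Ddx3y was present in the first set and listed at 0 in the second, so the sex of the animals, culture, day and library preparation cannot be told apart behind the replicate sets.

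**Figure D4:**
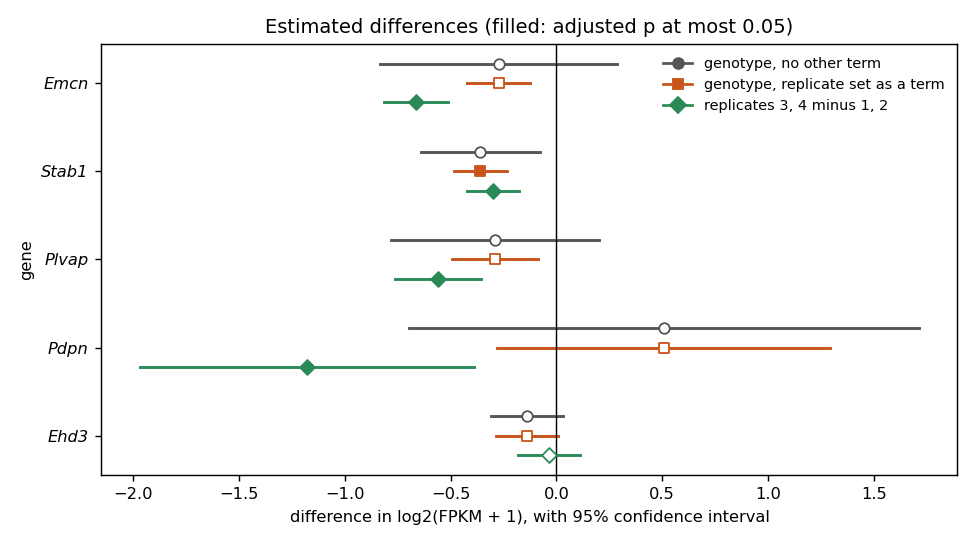
Points are limma estimates of the difference in log2(FPKM + 1) with 95% confidence intervals, for the genotype label alone (circles), for the label with the replicate set as a term (squares) and for replicates 3 and 4 minus 1 and 2 (diamonds), and filled symbols mark an adjusted p of at most 0.05. Stab1 is the only gene with a filled square, at -0.36, and Ehd3 is the only gene with an open diamond.

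The lower means went along with lower levels of general endothelial genes. The geometric mean of the 17 pan-endothelial genes other than Emcn was 67.5 to 92.7 FPKM in wild type and 45.8 to 72.6 FPKM in the libraries labelled Cavb3 KO. In bulk RNA, fewer endothelial cells and less RNA per cell cannot be told apart. Expressed as a percentage of that mean, Stab1 was at 71.9 ± 6.85 in wild type and 72.3 ± 6.08 in the libraries labelled Cavb3 KO (SD, n = 4 each), a ratio of 1.01. Plvap was at 44.5 ± 3.48 and 46.9 ± 3.62 (ratio 1.05), and Emcn at 428 ± 102 and 451 ± 17.1 (ratio 1.05).

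The differences of these 3 genes by genotype label were thus smaller than their SD among wild type libraries on the relative scale. For Emcn the difference was larger than the SD among the libraries labelled Cavb3 KO. Pdpn was at 11.99 ± 2.17 and 26.1 ± 17.5 percent, and Ehd3 at 12.5 ± 1.06 and 14.9 ± 3.78 percent. With Sox18, the most variable of the reference genes, left out, the ratios were 0.964 for Stab1, 1.02 for Plvap and 1.01 for Emcn. Between the replicate sets the relative ratios were 0.904 for Plvap and 0.853 for Emcn, or 0.780 and 0.735 without Sox18. For Stab1 that ratio was 1.09 with Sox18 and 0.941 without it, so its side of 1 depended on that gene.

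Other genes of the same vessel beds were taken from lists of markers, which like the members were drawn up with earlier results of these data known. The members are counted in the numbers that passed the filter. Some genes stand in several lists, such as Flt4 (lymphatic and venous) and Kdr (fenestrated and pan-endothelial). Of 25 lymphatic genes 12 passed the filter, Pdpn among them. Flt4, the receptor of the lymphatic growth factors, was at 37.2 to 58.9 FPKM over the 8 libraries and Angpt2, which acts on the receptor Tek, at 283 to 722 FPKM, while Ccl21a, the chemokine of lymphatic vessels, was listed at 0 in every library and Mmrn1 reached at most 0.0478 FPKM. Of 20 sinusoidal genes 6 passed, Stab1 among them, whereas its relative Stab2 was at 0.0241 to 0.0875 FPKM, Clec4g at no more than 0.0173 FPKM and Fcgr2b at no more than 0.0133 FPKM. Of 14 fenestrated capillary genes 11 passed, Plvap and Ehd3 among them, but not Gpihbp1 or Cd36. All 18 pan-endothelial genes also passed, beside 11864 of all 54532 genes. The fenestrated list shares Kdr and the lymphatic list Sox18 with the pan-endothelial list, so these counts do not single out a vessel bed. Of 18 genes of peripheral capillaries and fatty acid uptake 9 passed, with Lpl at up to 0.0421 FPKM, Car4 at up to 0.0980 FPKM and Fabp4 at 0.968 to 2.94 FPKM.

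Brain endothelial genes were expressed beside these markers. Of 23 such genes 17 passed the filter, with Slc2a1, the glucose transporter, at 234 to 567 FPKM and Cldn5, the claudin of the barrier, at 10.4 to 103 FPKM, but Mfsd2a stayed at 0.163 to 0.450 FPKM and Lef1 at 0.218 to 0.639 FPKM.

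By genotype label, none of the tested genes in these 7 endothelial lists passed limma without further terms, beside 0% of all tested genes. With members left out, these were 9, 5, 11, 9, 8, 17 and 17 fenestrated, sinusoidal, lymphatic, peripheral, venous, brain and pan-endothelial genes. Their median log2 differences were -0.22, -0.16, -0.26, -0.07, -0.19, -0.23 and -0.27, beside -0.02 over all tested genes. With the replicate set as a term, non-members that passed were Igfbp3 (fenestrated list, -0.92 ± 0.12 SE), Angpt2 (lymphatic, -0.58 ± 0.08), Cav1 (peripheral, -0.67 ± 0.10) and the pan-endothelial Esam (-0.38 ± 0.05), Clec14a (-0.37 ± 0.05) and Icam2 (-0.30 ± 0.05), all lower. Rspo3, a Wnt agonist secreted by hepatic central veins, rose by 1.16 ± 0.14, from 4.27 ± 3.30 to 10.6 ± 7.14 FPKM (SD, n = 4 each), with overlap. The limma adjusted p of these 7 genes lay between 0.0404 and 0.0486, in a fit that called 0.371% of all tested genes lower and 0.261% higher. Once the replicate number was fitted as a block, none of the genes in these lists passed, beside 0% of all tested genes.

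Between the replicate sets more of the list genes passed, as did more of all tested genes. The counts and medians here and below leave out the members. They stand beside 25.8% of all tested genes lower and 19.8% higher. In the fenestrated list 6 of 9 were lower in replicates 3 and 4 and 0 higher, with a median of -0.40 beside -0.04 over all tested genes. The non-members with the largest differences were Igfbp3, a growth factor binding protein (-2.22), Esm1, a tip cell proteoglycan (-1.68), Plpp3 (-1.20) and the VEGF receptor Kdr (-0.99). In the lymphatic list 8 of 11 were lower and 0 higher (median -0.56). The largest differences were those of Sox18, a factor upstream of Prox1 in lymphatic development (-3.25), Tbx1 (-1.26), Gja1 (-1.04) and Ccbe1, which helps process VEGF-C (-0.85). Sox18 overlapped between the sets, as its values under the other observations show, and is also in the pan-endothelial list.

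Among sinusoidal genes 2 of 5 were lower and 1, Rspo3, higher (1.63), with Bmp6 at -0.67 and Tfpi at -0.26. In the peripheral list 4 of 9 were lower and 2 higher, with Angptl4 at -0.76, Cav1 at -0.75, and Rgcc at 2.46 the largest difference in either direction. In the venous list 5 of 8 were lower and 2 higher, led by the ephrin receptor Ephb4 (-1.21) and Vcam1 (-0.95). Brain endothelial genes were divided, with 7 of 17 lower, among them Cldn5 (-1.49) and Apcdd1 (-0.79), 3 higher, among them the lactate transporter Slc16a1 (1.43), a share of higher genes near that of all tested genes, and a median of -0.03. Pan-endothelial genes had 8 of 17 lower, among them Egfl7 (-1.48), and 2 higher (median -0.11). The limma adjusted p of the genes named for this comparison lay between 1.7e-04 and 0.0259.

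Markers of other cells were mostly low. Macrophages express Stab1, Lyve1 and Cd36. Of 18 macrophage and microglia genes 16 stayed under 1 FPKM in every library, Trem2 was listed at 0 throughout, and Ptprc, C1qa, C1qb and Tyrobp reached at most 0.137, 0.101, 0.109 and 0.0527 FPKM. The summed level was 4.27 to 10.3 FPKM in wild type and 4.62 to 8.52 FPKM in the libraries labelled Cavb3 KO, most of it the lysosomal Cd68. That sum was 4.27 to 5.29 FPKM in the first replicate set and 7.27 to 10.3 FPKM in the second. The part of such cells in the Stab1 values was not tested.

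Fibroblast and meningeal genes summed to 18.8 to 23.4 FPKM in wild type and 15.7 to 27.8 FPKM in the libraries labelled Cavb3 KO, with 9 of 15 under 1 FPKM in every library and Lum listed at 0 throughout. Choroid plexus genes summed to 27.4 to 34.2 and 25.5 to 32.9 FPKM, with Ttr, the main transcript of that epithelium, at 0.0692 FPKM or less. Pericyte and smooth muscle genes summed to 5.48 to 31.6 and 6.73 to 19.0 FPKM, with 7 of 12 under 1 FPKM in every library. That sum was lower in replicates 3 and 4 (5.48 to 8.31 FPKM) than in replicates 1 and 2 (10.96 to 31.6 FPKM). Emcn, Plvap and Pdpn were also lower without overlap, as were 22.8% of all tested genes. The part of pericytes and smooth muscle in those differences was not tested. Astrocyte genes summed to 18.3 to 31.6 FPKM over all libraries, with 7 of 10 under 1 FPKM in every library. That list shares Gja1 with the lymphatic list. Neuronal and oligodendrocyte genes summed to 0.931 to 1.90 FPKM.

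Across the 8 libraries the tested members fell into like and unlike patterns. The Pearson r of log2(FPKM + 1) was 0.91 between Plvap and Stab1, 0.89 between Plvap and Emcn and 0.83 between Emcn and Stab1, while Pdpn had 0.34 with Stab1 and -0.10 with Ehd3. These values describe 8 libraries that share genotype labels and replicate sets. Among 10492 other tested genes, the pattern of Plvap was most like those of Dynlt1b, Cfl1 and Spns2 (r of 0.996, 0.995 and 0.991). For Emcn the nearest were Cgnl1, Manba and Tnfrsf26 (0.993, 0.993 and 0.991), for Stab1 they were Angpt2, Mgst1 and Dglucy (0.990, 0.989 and 0.989), for Pdpn Cdh2, Cyp51 and Scarf2 (0.993 for each), and for Ehd3 Rtp4, Malrd1 and Nptxr (0.980, 0.965 and 0.958).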

How the data were processed

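RNA-seq covered cultured mouse brain endothelium, in 4 wild type libraries and 4 labelled Cavb3 KO, grouped and numbered by their titles. The authors deposited FPKM values, 1 table per library with 54532 genes. Reads were aligned with HISAT2 2.0.5, per the submitters' processing notes. The sources used here name no counter, genome build, annotation or strand setting. Symbols matched 54409 identifiers. FPKM times the exon length in GENCODE M21 (GRCm38) gave whole multiples of 1 constant per library for 96.5% to 96.8% of values above 0 (tolerance 0.01), from which depth and reads were recovered.

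The 11864 genes that reached 1 FPKM in 4 or more libraries entered limma 3.58.1 (R 4.3.3). Values were log2(FPKM + 1), variances were moderated robustly with a trend on mean level, and p-values had Benjamini-Hochberg adjustment over all of them, at 0.05. This scale understates changes of low genes. The fits had genotype alone, genotype and replicate set (replicates 1 and 2, or 3 and 4), or both with their interaction. They were tested on simulated data with independent noise, in which only the term under test differed. The genotype fits were thus not tested on data with a difference between replicate sets. P-values measure the spread between these libraries. Same-numbered libraries deviated together from their group means (correlations across genes of 0.41, 0.75, 0.40 and 0.52), which by the criterion of 0.1 in every pair makes the numbers a pairing, so a fit with the number as a block was run. Libraries with different numbers of the same replicate set correlated alike (0.41, 0.69, 0.70 and 0.57) and libraries of different sets negatively, so these correlations follow the replicate set and do not single out the number.

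The members and lists were chosen with earlier results of these data known. The text names all 9 members, Cacnb3, the 3 genes most like each tested member and up to 4 called non-members per endothelial list and comparison, besides list genes given as levels. Alternatives were a pseudocount of 0.1, no filter, a filter at 5 FPKM, quantile normalization, median centring, no trend, limma-voom on recovered reads, the replicate set or block, single replicate sets and leaving out each library. Promoter sequences are from RefSeq. Python 3.11.15, numpy 2.4.6, pandas 2.3.3 and matplotlib 3.10.9 were used.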

Additional observations from a re-analysis of the deposited data

How the results depend on the processing

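By genotype label, 0 of 11864 genes and 0 of 5 tested members were called, and leaving out any library also gave 0 genes and 0 members. With the replicate set as a term 75 genes and 1 member (Stab1) were called, with limma-voom on recovered reads in that fit 214 genes and 1 member, without the filter 0 members, and with libraries left out in that fit 0 to 322 genes and 0 to 1 members (322 and 1 without replicate 3, 80 and 1 without replicate 4 labelled Cavb3 KO). The fits that join this term with a left-out library, no filter or recovered reads were chosen after seeing the data. With the replicate block 0 genes and 0 members were called (smallest adjusted p = 0.0902 over genes and 0.107 for Stab1), and with replicates 3 and 4 alone 6 genes and 0 members. Pdpn turned from 0.51 to -0.039 in replicates 3 and 4 alone. Between the replicate sets 5419 genes and 4 members were called, with 3901 to 5518 genes and 3 to 4 members when a library was left out, and 3530 genes at a filter of 5 FPKM, where fewer genes were tested. Ehd3 turned from -0.03 to 0.0033 with quantile normalization and to 0.0084 with median centring. For the difference between sets in the genotype effect, 1 gene and 0 members were called, 2 genes with a pseudocount of 0.1 or on recovered reads, and 1 to 58 genes with a library left out (58 without wild type replicate 2). The cause of these changes was not tested. Depth limits Gpihbp1 (6 to 14 reads) and Cd36 (0 or 1 read).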

Other observations

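Sox18, a transcription factor of blood and lymphatic endothelium that is in the lymphatic and pan-endothelial lists, varied widely among libraries of the same label. The wild type libraries held it at 8.48, 107, 7.39 and 9.18 FPKM, and it was at 30.4, 70.2, 0.807 and 0.815 FPKM in the libraries labelled Cavb3 KO.

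Rgcc, a regulator of cell cycle progression that is prominent in capillary endothelium, lay the other way from Plvap and Emcn between the replicate sets. Its range was 1.31 to 3.40 FPKM in the first set and 14.6 to 21.4 FPKM in the second.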
